A study of Mus musculus with 15 samples.

Results

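Transcripts of 9 genes of the renin-angiotensin system were followed in 15 RNA-seq libraries of mouse kidney and lung. The 9 were taken by gene symbol from a deposited table of 56748 genes. That rule uses no measured value, though the list of symbols was chosen with earlier results of these data known. They are *Agt*, *Ren1*, *Ace*, *Enpep*, *Mme*, *Agtr1a*, *Agtr1b*, *Agtr2* and *Mas1*, and all 9 were found. The study asked how neutralizing leptin, the adipocyte hormone, with an antibody (LepAb) changes injured kidney and lung.

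All mice were male C57Bl/6 animals labelled WT, and each group holds 3 libraries. WTK kidneys came from mice aged 10 to 12 weeks that received the bicarbonate vehicle of folic acid. The study describes antibody injections after vehicle too, but which antibody, if any, the WTK mice received is not given in the labels. IgGK and LepK kidneys came from mice of that age that received a single intraperitoneal dose of 200 mg/kg folic acid, which injures the tubules, and then control IgG (IgGK) or LepAb (LepK). Kidneys were collected on day 28. The study tried a range of antibody doses in this model and then settled on 10 mg/kg, and no label ties a dose to these libraries. IgGL and LepL lungs came from mice aged 12 weeks that received intratracheal bleomycin (1.5 units/kg), which injures the alveoli, and then control IgG (IgGL) or LepAb (LepL) at 10 mg/kg, with collection on day 14. No uninjured lung library was analysed here, so lung comparisons address the antibody alone. Organ, injury and day change together between the kidney and lung libraries.

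The renin-angiotensin system is a chain of proteases that turns a plasma protein into small peptide hormones which set blood pressure and salt balance. Angiotensinogen (*Agt*) is cut by renin (*Ren1*), the rate-limiting enzyme that juxtaglomerular cells of the kidney release, to angiotensin I. Angiotensin-converting enzyme (*Ace*), abundant on lung endothelium and on the proximal tubule brush border, trims angiotensin I to angiotensin II, which acts through the type 1 receptors (*Agtr1a*, *Agtr1b*) and the type 2 receptor (*Agtr2*). Aminopeptidase A (*Enpep*) shortens angiotensin II from its N terminus. Neprilysin (*Mme*) cuts angiotensin I to angiotensin 1-7, the peptide that the Mas receptor (*Mas1*) senses. Rodents have a pair of type 1 receptor genes that arose by duplication, and C57Bl/6 mice carry a single renin gene.

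In the deposited table, whose submitters' notes name the build GRCm39, *Ren1* (ENSMUSG00000070645) lies on chromosome 1 from 133278248 to 133288063 on the plus strand. *Agt* (ENSMUSG00000031980) lies on chromosome 8 from 125283273 to 125296445 on the minus strand. *Ace* (ENSMUSG00000020681) lies on chromosome 11 from 105858771 to 105880790 on the plus strand. *Agtr1a* (ENSMUSG00000049115) lies on chromosome 13 from 30520424 to 30566850, on the plus strand. Each of the 9 is listed as protein coding and is a whole gene with its exons and introns. The libraries do not keep the strand, so reads cannot be divided between genes that overlap. This matters for *Mas1*, which *Airn*, a long noncoding RNA of the opposite strand, overlaps with 153 to 500 counts a library. The other overlapping genes, with *Ace*, *Agtr1a* and *Enpep*, held at most 27 counts in a library.

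The promoters of *Agt*, *Ren1* and *Ace* are printed because these genes carry the results: in injured kidney *Ren1* and *Ace* fell while *Agt* was higher. The sequences are RefSeq's, of GRCm38.p6, a different build from that of the gene positions above, and each gives the 250 bases before a start site, 5′ to 3′ on the gene's strand. Capitals mark matches to 2 short motifs searched on both strands, TATAA (found in the core of many promoters) and TTCNNNGAA (a site type bound by STAT factors, which the leptin receptor activates).
*Ren1* (chr1:133350424-133350673, plus): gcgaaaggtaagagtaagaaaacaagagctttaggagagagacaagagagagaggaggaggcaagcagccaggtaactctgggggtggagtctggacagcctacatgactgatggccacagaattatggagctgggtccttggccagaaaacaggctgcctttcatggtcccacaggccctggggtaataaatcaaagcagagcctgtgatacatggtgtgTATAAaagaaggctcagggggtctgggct
*Agt* (chr8:124569707-124569956, minus): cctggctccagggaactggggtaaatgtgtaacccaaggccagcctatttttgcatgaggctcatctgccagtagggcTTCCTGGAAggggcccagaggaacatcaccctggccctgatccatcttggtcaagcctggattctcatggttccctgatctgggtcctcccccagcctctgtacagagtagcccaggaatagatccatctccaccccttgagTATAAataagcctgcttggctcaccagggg
*Ace* (chr11:105967698-105967947, plus): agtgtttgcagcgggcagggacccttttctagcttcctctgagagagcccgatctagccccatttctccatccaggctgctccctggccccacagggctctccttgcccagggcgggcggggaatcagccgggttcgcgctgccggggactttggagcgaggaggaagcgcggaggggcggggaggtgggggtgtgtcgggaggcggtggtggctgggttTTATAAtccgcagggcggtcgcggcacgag
Each of the 3 windows holds TATAA on the gene's own strand, from 29 to 25 bases before the start in *Ren1* and *Ace* and from 30 to 26 bases in *Agt*. In *Ace* the match overlaps one on the other strand by 4 bases. The *Agt* window holds a TTCNNNGAA match, from 172 to 164 bases before the start, and the printed *Ren1* and *Ace* windows do not. TATAA stood in 22.8% and TTCNNNGAA in 7.02% of all 32851 windows of this length. Windows were at hand for 8 of the 9 members, and the one without is *Agtr1a*. Over their 11 windows TATAA stood in 6 and TTCNNNGAA in 3, the other 2 being those of *Enpep* and of the first start of *Mme*. A match is a stretch of letters, and binding was not measured.

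Total counts ranged from 25913969 to 38924788 a library, so that 3 counts, taken as the floor for a gene not seen, equal 0.0756 to 0.125 CPM (counts-per-million after scaling). Below, a level of 1 gene across libraries is in normalized CPM (scaled by edgeR's TMM factors) and a level set beside that of another gene is in the deposited FPKM, which divides by gene length. Libraries IgGK replicates 1 and 2 stand apart. They held transcripts of the adrenal cortex, the gland on top of the kidney: 8 cortex markers summed to 644 and 829 CPM there, to 17.4 CPM in IgGK replicate 3 and to 5.87 to 8.09 CPM in the 6 other kidney libraries. *Cyp11b1*, which makes corticosterone, had 2266 and 3602 counts in these 2 libraries, 39 in IgGK replicate 3, and at most 2 in WTK and LepK. Results are therefore also given with IgGK replicate 3 as the single IgGK library, a choice made after the data were seen. In those fits the lone library is assumed to vary like the other groups, which alone supply the spread.

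Measured per length, the order of the members differed between the organs and between the kidney groups. In WTK kidney *Ace* led with 56.3 ± 3.47 FPKM (SD, n = 3), followed by *Ren1* at 33.3 ± 2.89, *Agt* at 25.9 ± 3.45, *Enpep* at 20.6 ± 1.01, *Agtr1a* at 13.7 ± 0.649, *Mme* at 9.46 ± 0.582 and *Mas1* at 1.33 ± 0.235 FPKM, and none of these neighbours overlapped. In IgGK kidney *Agt* led with 35.5 ± 1.23 FPKM. *Ace* followed at 18.5 ± 5.02 and overlapped *Enpep* at 15.1 ± 0.716, and *Ren1* came next at 10.2 ± 0.451 FPKM. In LepK kidney *Agt* (39.7 ± 2.74 FPKM) and *Ace* (29.4 ± 7.79) overlapped at the top, and *Ren1* (19.8 ± 3.38) overlapped *Enpep* (15.9 ± 2.38).

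Lung held a different set of transcripts, led by the converting enzyme. *Ace* reached 155 ± 18.4 FPKM in IgGL and 97.7 ± 11.4 in LepL, followed in both groups by *Enpep*, *Mme* and *Agtr1a* with no overlap between neighbours. *Agt* was scarce in lung, at 0.362 ± 0.0958 FPKM in IgGL. *Ren1* had 0 counts in 5 of the 6 lung libraries and 4 counts in LepL replicate 2, so its transcripts were near or under the floor there. *Agtr1b* had at most 21 counts and *Agtr2* at most 43 counts in any library of either organ.

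In the kidney, 7 of the 9 members passed the filter on low counts, and *Agtr1b* and *Agtr2* did not. A gene was called where its absolute log2 fold change exceeded 0.5 and its Benjamini-Hochberg adjusted p from edgeR's quasi-likelihood test was under 0.05. After folic acid and control IgG (IgGK against WTK), 4 members fell, namely *Ren1*, *Ace*, *Agtr1a* and *Mas1*, and 0 rose, where 15.6% of the 19593 genes tested fell and 21.7% rose. *Agt* was higher at an adjusted p of 0.000488 from edgeR, but its log2 fold change of 0.496 was under the threshold of 0.5. DESeq2 called 0 members higher. The median log2 fold change over the 7 was -0.96, beside 0.04 over all genes tested. Under LepAb (LepK against IgGK), 2 members rose, *Ren1* and *Ace*, and 0 fell, where 4.38% of genes rose and 5.99% fell, and the medians were 0.28 and -0.01. At an unadjusted p under 0.05 edgeR had 0 members lower, and DESeq2 called 0 lower. LepK kidneys compared with WTK had *Ren1*, *Ace*, *Agtr1a* and *Mas1* lower and *Agt* higher, where 7.3% of genes fell and 15.2% rose. These comparisons share libraries, so their values stand side by side and no overlap between them was tested. Groups did not overlap in CPM for 6 of the 7 in IgGK against WTK (62.6% of all genes), 4 in LepK against IgGK (37.4%) and 7 in LepK against WTK (50.2%).

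**Figure D1:**
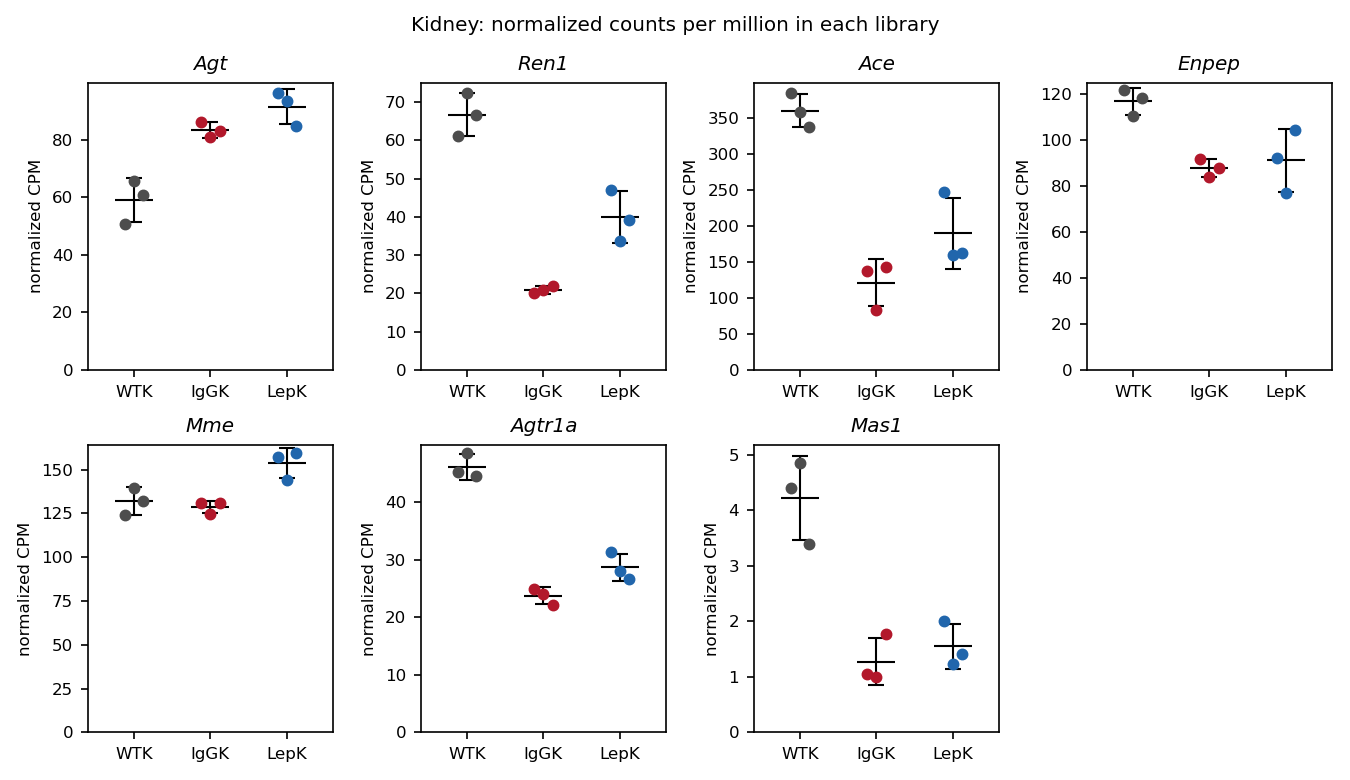
Normalized CPM (vertical axes, from 0) of the 7 members tested in kidney, with 1 point for each library of WTK, IgGK and LepK, and bars for mean ± SD (n = 3). *Ren1* and *Ace* in the LepK libraries lie between the WTK and IgGK libraries, and *Agt* is lowest in WTK.

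*Agt*, the substrate of the system, was higher in the injured kidneys of both treatments. It stood at 50.6, 65.9 and 60.9 CPM in WTK, 86.3, 80.9 and 83.0 CPM in IgGK and 96.5, 93.5 and 84.7 CPM in LepK. Every injured kidney exceeded every WTK kidney, and the IgGK and LepK libraries overlapped. The log2 fold change was 0.496 ± 0.09 (SE) in IgGK against WTK, just under the threshold of 0.5 at an edgeR adjusted p of 0.000488, and it passed that threshold without WTK replicate 2, WTK replicate 3, IgGK replicate 2 or IgGK replicate 3. LepK against WTK gave 0.63 ± 0.09 (adjusted p = 0.000194 from edgeR), a rise to 1.55 times the WTK level. LepK against IgGK gave 0.14 ± 0.09 (adjusted p = 0.33 from edgeR).

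*Ren1*, the gene of renin, separated the 3 kidney groups. Its levels were 61.1, 72.5 and 66.6 CPM in WTK, 19.98, 20.86 and 21.97 CPM in IgGK and 47.1, 33.7 and 39.2 CPM in LepK. No 2 groups overlapped, and every LepK kidney lay between the IgGK and WTK kidneys. *Ren1* fell to 0.314 times the WTK level in IgGK, a log2 fold change of -1.67 ± 0.11 (adjusted p = 1.74e-07 from edgeR). It rose 1.91-fold in LepK over IgGK, a log2 fold change of 0.93 ± 0.11 (adjusted p = 0.000287 from edgeR), and stayed at 0.599 times the WTK level (log2 -0.74 ± 0.11, adjusted p = 0.000228 from edgeR). IgGK replicate 3, the library with few adrenal transcripts, held 21.97 CPM, the highest of its group. Of 4 other juxtaglomerular markers, none of them at 0, edgeR called 2 higher in IgGK against WTK, *Crip1* and *Akr1b7*. The 4 summed to 73.3 to 83.9 CPM in WTK, 110 to 141 CPM in IgGK and 111 to 115 CPM in LepK, and most of the rise of the sum lay in *Crip1*, which many cell types express, at 11.1 ± 0.98 CPM in WTK and 44.8 ± 8.47 CPM in IgGK (SD, n = 3). *Akr1b7*, which the adrenal cortex expresses too, stood at 9.27 and 10.7 CPM in IgGK replicates 1 and 2 and at 0.578 CPM in IgGK replicate 3, below the 1.54 to 2.20 CPM of WTK. *Rgs5*, which also marks pericytes, and *Gja5* gave log2 fold changes of 0.15 and 0.24 and were not called (adjusted p = 0.231 and 0.345 from edgeR). In LepK against IgGK edgeR called 2 of the 4 markers lower and 0 higher, with a median log2 fold change of -0.30. In bulk RNA, fewer cells of a type and less RNA per cell cannot be told apart.

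*Ace* followed the same order of groups with a wider spread. It stood at 384, 358 and 338 CPM in WTK, 137, 83.3 and 143 CPM in IgGK and 247, 160 and 162 CPM in LepK. All IgGK kidneys lay below all LepK kidneys, and LepK replicate 1 lay well above the other 2 of its group. The fall in IgGK was to 0.337 times the WTK level (log2 -1.57 ± 0.20, adjusted p = 2.35e-05 from edgeR). The rise in LepK over IgGK was 1.56-fold (log2 0.64 ± 0.19, adjusted p = 0.0343 from edgeR). That rise was no longer called without IgGK replicate 2 (log2 0.44, adjusted p = 0.0906), without LepK replicate 1 (log2 0.41, adjusted p = 0.148), without any 1 of the 3 WTK libraries (adjusted p from 0.05 to 0.053), under DESeq2 (adjusted p = 0.0554) or with IgGK replicate 3 alone (log2 0.41, adjusted p = 0.329). LepK stayed at 0.526 times the WTK level (log2 -0.93 ± 0.19, adjusted p = 0.00247 from edgeR).

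Markers of the proximal tubule, where several members, *Ace* among them, are expressed, differed between these groups. The 14 markers, none of them at 0, summed to 63697 to 66117 CPM in WTK, 15492 to 24027 CPM in IgGK and 33236 to 45139 CPM in LepK. All 14 were called lower in IgGK against WTK and 12 were called higher in LepK against IgGK. Of the 7 members tested, 6 had a log2 fold change below 0 in IgGK against WTK, from -1.72 for *Mas1* to -0.04 for *Mme*. That of *Enpep* was -0.41, and that of *Agt*, the 1 above 0, was 0.496. The 10 endothelial markers summed to 361 to 410, 304 to 346 and 365 to 403 CPM in WTK, IgGK and LepK. Markers of other cell types moved as well. The 8 fibroblast markers summed to 151 to 205 CPM in WTK, 1334 to 1511 CPM in IgGK and 448 to 761 CPM in LepK, and the 8 macrophage markers to 183 to 211, 1650 to 2101 and 587 to 874 CPM. All 8 of each list were called higher in IgGK against WTK, and 7 of each were called lower in LepK against IgGK. Of 8 adipocyte markers, 6 were called higher and 2 lower in IgGK against WTK. Their sum went from 3468 to 3620 CPM in WTK to 2209 to 2794 CPM in IgGK. Most of that sum was *Pck1*, at 3373 ± 158 CPM in WTK and 1912 ± 179 CPM in IgGK (SD, n = 3), so the sum mainly follows this gene. In LepK against IgGK, 7 of the 8 were lower, 1 of them called, and 1 was higher. No marker of these 3 lists was at 0 in kidney. In IgGK against WTK edgeR also called 5 of 8 podocyte markers higher and 0 lower, and 4 of 4 tested neutrophil markers higher. Of 10 smooth muscle and pericyte markers it called 5 higher and 1 lower. In LepK against IgGK it called 1 podocyte marker and the 4 neutrophil markers lower, and 1 smooth muscle and pericyte marker higher. The part of any of these cell types in the changes of the members, the higher *Agt* included, was not tested.

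The angiotensin-cutting peptidases *Enpep* and *Mme* changed less than *Ren1* and *Ace* in kidney, and neither was called. *Enpep*, which removes the first residue of angiotensin II, stood at 122, 111 and 118 CPM in WTK, 91.9, 83.9 and 87.9 CPM in IgGK and 92.4, 77.0 and 104 CPM in LepK. Every WTK kidney was above every injured kidney, with a log2 fold change of -0.41 ± 0.10 in IgGK (adjusted p = 0.00277 from edgeR), short of the fold threshold. *Mme* stood at 124, 140 and 132 CPM in WTK, 131, 125 and 131 CPM in IgGK and 158, 144 and 160 CPM in LepK. WTK and IgGK overlapped (log2 -0.04 ± 0.07, adjusted p = 0.689 from edgeR), and the LepK kidneys lay above both. The LepK difference from IgGK, 0.26 ± 0.07 on the log2 scale (adjusted p = 0.0188 from edgeR), was under the fold threshold.

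Among the receptors, *Agtr1a*, the main angiotensin II receptor of the kidney, was measured well. Its levels were 45.3, 48.6 and 44.4 CPM in WTK, 24.9, 24.1 and 22.1 CPM in IgGK and 31.31, 27.99 and 26.69 CPM in LepK. No 2 groups overlapped. *Agtr1a* fell to 0.514 times the WTK level in IgGK (log2 -0.96 ± 0.08, adjusted p = 1.07e-06 from edgeR) and to 0.622 times in LepK (log2 -0.68 ± 0.08, adjusted p = 5.73e-05 from edgeR). The LepK difference from IgGK was 0.28 ± 0.08 (log2, adjusted p = 0.0342 from edgeR), under the fold threshold.

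*Mas1*, the receptor of angiotensin 1-7, was scarce, with 32 to 123 counts in a kidney library. It had 106, 123 and 94 counts in WTK, 32, 35 and 61 counts in IgGK and 61, 37 and 38 counts in LepK, with means of 4.22 ± 0.75, 1.27 ± 0.43 and 1.55 ± 0.40 CPM (SD, n = 3). Both injured groups lay below WTK and overlapped each other. The fall was -1.72 ± 0.31 (log2, adjusted p = 0.000482 from edgeR) in IgGK and -1.44 ± 0.31 (adjusted p = 0.00296 from edgeR) in LepK, and reads of the overlapping *Airn* could not be separated by strand. LepK against IgGK gave 0.28 ± 0.32 (adjusted p = 0.588 from edgeR).

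The other 2 angiotensin II receptors were seen in few kidney libraries. *Agtr1b*, the type 1 receptor that the adrenal gland expresses, had 6, 21 and 0 counts in IgGK replicates 1, 2 and 3 and 0 counts in each WTK and LepK kidney. *Agtr2* had 43 counts in IgGK replicate 2, 2 counts in IgGK replicate 3, 6 counts in WTK replicate 1 and 0 counts in the other 6 kidneys. The libraries with *Agtr1b* counts are those with the high sums of adrenal cortex markers. Neither receptor was tested in kidney, and the part of adrenal tissue in these counts was not tested.

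**Figure D2:**
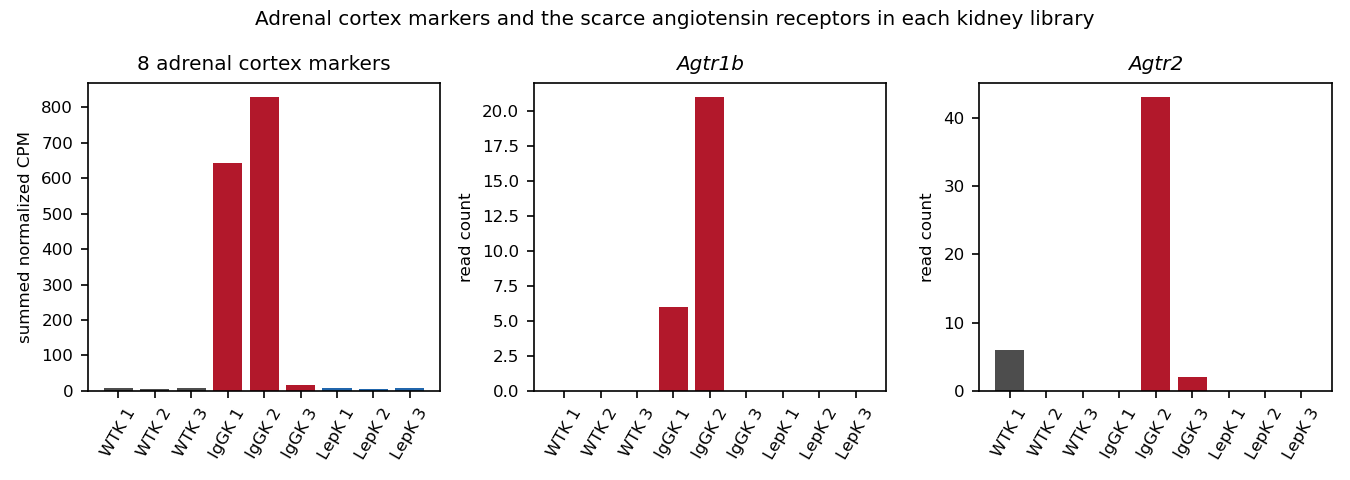
For each of the 9 kidney libraries, bars give the summed normalized CPM of 8 adrenal cortex markers (left) and the read counts of *Agtr1b* (middle) and *Agtr2* (right). IgGK replicates 1 and 2 reach 644 and 829 CPM in the marker sum and hold the 6 and 21 *Agtr1b* counts, and IgGK replicate 2 holds 43 *Agtr2* counts.

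In bleomycin-injured lung, 7 members passed the filter, and *Ren1* and *Agtr2* did not. With LepAb (LepL against IgGL), *Enpep* and *Mme* rose and *Ace* fell, where 1.78% of the 19617 genes tested rose and 2.36% fell. The median log2 fold change over the 7 members was 0.68, the value of the scarce *Mas1*, beside 0.00 over all genes tested. The 7 went both ways, 4 higher and 3 lower, from -0.70 for *Ace* to 1.15 for the scarce *Agtr1b*. Groups did not overlap for 4 of the 7, beside 33.3% of all genes. The 3 calls rest on small margins: each was lost without any single library other than IgGL replicate 1 (adjusted p up to 0.209 from edgeR), and none changed direction.

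*Ace* in lung stood at 1110, 1362 and 1116 CPM in IgGL and 695, 839 and 679 CPM in LepL. Every LepL lung was below every IgGL lung. *Ace* fell to 0.617 times the IgGL level (log2 -0.70 ± 0.14, adjusted p = 0.0395 from edgeR). The 10 endothelial markers, none at 0, summed to 2862 to 3288 CPM in IgGL and 2634 to 3224 CPM in LepL, and edgeR called 0 of the 10, with 2 at an unadjusted p under 0.05, while DESeq2 called 0.

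*Enpep* in lung was 87.8, 51.9 and 47.0 CPM in IgGL and 115, 114 and 131 CPM in LepL. The groups did not overlap, and IgGL replicate 1 stood above the other 2 of its group. *Enpep* rose 1.93-fold (log2 0.94 ± 0.22, adjusted p = 0.0471 from edgeR). *Mme* in lung was 66.3, 59.8 and 52.3 CPM in IgGL and 86.0, 106 and 112 CPM in LepL, again with no overlap. *Mme* rose 1.70-fold (log2 0.77 ± 0.13, adjusted p = 0.0327 from edgeR).

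Several marker sums moved between the lung groups as well. The 7 markers of alveolar type 2 cells, the surfactant-making cells of the alveolus, summed to 6894 to 12923 CPM in IgGL and 18569 to 25249 CPM in LepL. Alveolar type 1 markers summed to 3408 to 4366 CPM and 4877 to 5509 CPM. Fibroblast markers, collagens among them, summed to 7252 to 8361 CPM and 3249 to 4507 CPM, and the smooth muscle and pericyte markers to 1466 to 1595 CPM and 1021 to 1213 CPM. None of these 4 lists held a marker at 0 in lung. EdgeR called 3 of 7 alveolar type 2 and 0 of 7 alveolar type 1 markers higher. It called 4 of 8 fibroblast and 4 of 10 smooth muscle and pericyte markers lower. B cell markers summed to 50.2 to 158 CPM in IgGL and 116 to 270 CPM in LepL (0 of 8 called). Adipocyte markers summed to 73.8 to 156 and 247 to 348 CPM, with all 7 tested higher (3 called). Macrophage markers summed to 3759 to 6650 and 7988 to 8241 CPM, though 7 of 8 were lower (2 called). Neutrophil markers summed to 153 to 381 and 59.3 to 92.0 CPM (4 of 7 tested called lower). The part of any of these lists in the changes of *Ace*, *Enpep* and *Mme* was not tested.

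**Figure D3:**
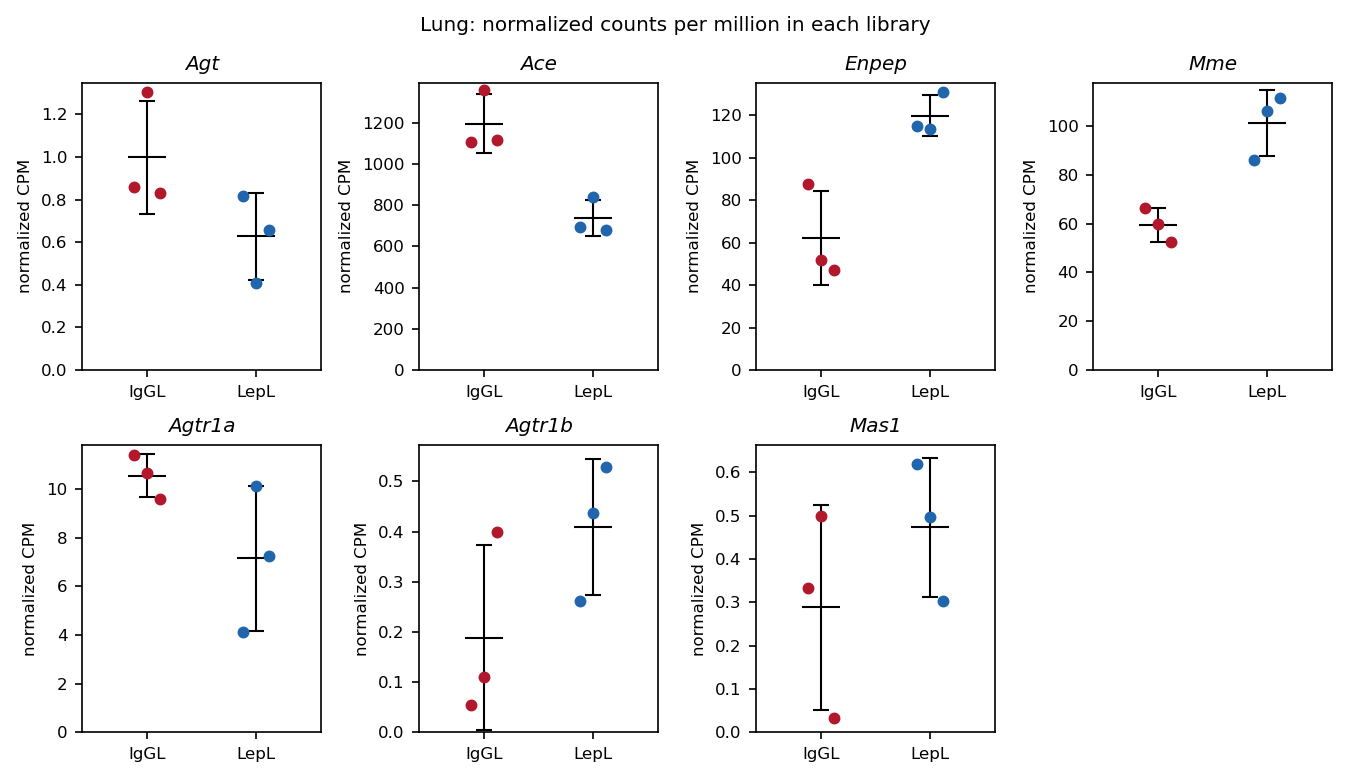
Normalized CPM (vertical axes, from 0) of the 7 members tested in lung, with 1 point for each library of IgGL and LepL, and bars for mean ± SD (n = 3). *Ace* is lower and *Enpep* and *Mme* are higher in every LepL lung than in every IgGL lung.

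The remaining members were scarce in lung or varied between replicates. *Agt* had 25 to 47 counts in IgGL and 14 to 26 counts in LepL, with a log2 fold change of -0.67 ± 0.46 (adjusted p = 0.374 from edgeR). In CPM its groups did not overlap, at 0.831 to 1.31 in IgGL and 0.409 to 0.816 in LepL. *Agtr1a* stood at 11.4, 10.7 and 9.61 CPM in IgGL and 4.15, 10.1 and 7.23 CPM in LepL (log2 -0.56 ± 0.29, adjusted p = 0.254 from edgeR). These groups overlapped for *Agtr1a*, since LepL replicate 2 lay above the lowest IgGL lung. *Agtr1b* had 2, 4 and 12 counts in IgGL and 8, 15 and 21 counts in LepL (log2 1.15 ± 0.76, adjusted p = 0.362 from edgeR). *Mas1* had 1 to 18 counts in IgGL and 12 to 19 counts in LepL (log2 0.68 ± 0.77, adjusted p = 0.609 from edgeR), and *Agtr2* had 4 counts in a single LepL lung. Differences of this size could not be resolved for these genes at this depth and spread.

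Whether the antibody effect differed between injured kidney and injured lung was tested in a joint fit of the 12 libraries of IgGK, LepK, IgGL and LepL. Of the 8 members in that fit, 1 was called at an adjusted p under 0.05, where 7.12% of the 21488 genes tested were. It was *Ace*, which rose in kidney and fell in lung: the kidney effect minus the lung effect was 1.37 ± 0.30 on the log2 scale (adjusted p = 0.0216 from edgeR). That call was lost without LepK replicate 1, IgGL replicate 2 or LepL replicate 3 (adjusted p from 0.0541 to 0.0568) and the difference was 1.13 with IgGK replicate 3 as the single IgGK library (adjusted p = 0.189), where the other groups supply the spread. The difference was 0.85 ± 0.27 for *Agt* (adjusted p = 0.072), -0.86 ± 0.27 for *Enpep* (adjusted p = 0.0674), -0.48 ± 0.16 for *Mme* (adjusted p = 0.0779) and 0.86 ± 0.32 for *Agtr1a* (adjusted p = 0.109), all on the log2 scale and from the same edgeR fit. *Mas1* gave -0.35 ± 0.83 (adjusted p = 0.845 from edgeR). No value is given for *Ren1* and *Agtr1b*, which had a group at 0 counts.

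**Figure D4:**
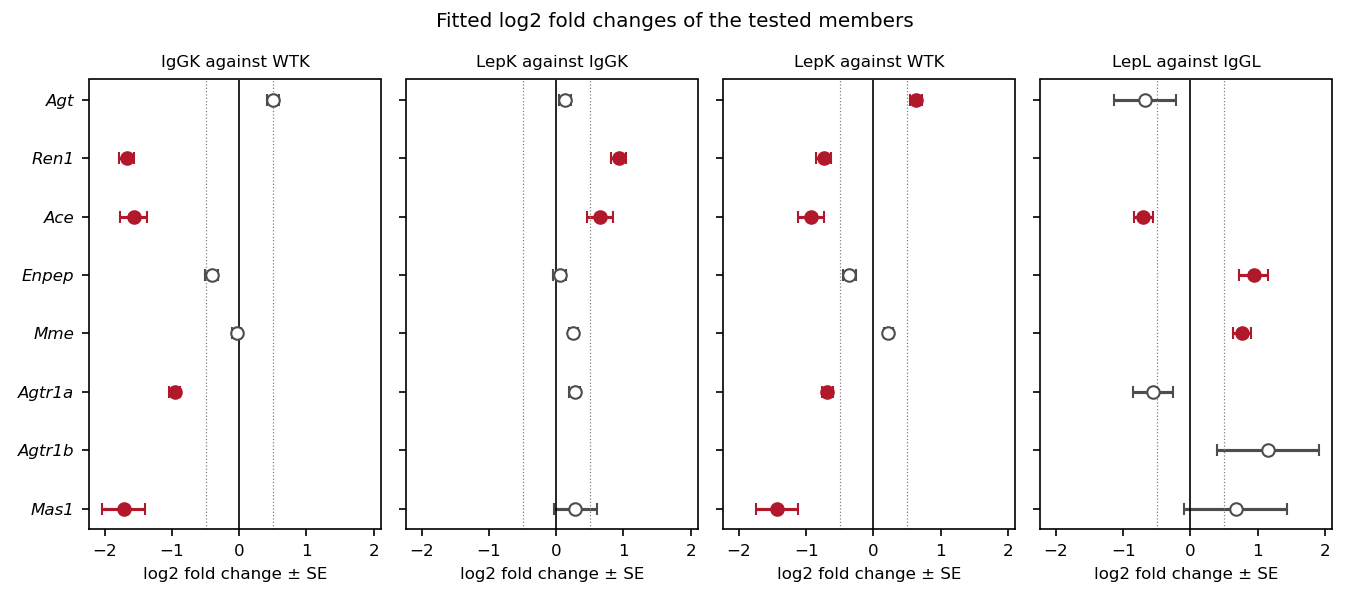
Fitted log2 fold changes ± SE from edgeR (horizontal axes) of the 8 members tested in at least 1 comparison, for the 4 comparisons. Filled points were called, dotted lines mark ±0.5, and a gene that was not tested has no point. In kidney *Ren1* and *Ace* lie at -1.67 and -1.57 in IgGK against WTK and at 0.93 and 0.64 in LepK against IgGK, and in lung *Ace* lies at -0.70 and *Enpep* at 0.94.

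Beyond the 9, a list of 16 further genes of the pathway was read, of which 12 passed the filter in each organ. In IgGK against WTK, edgeR called 4 of the 12 lower and 0 higher (1 higher at an unadjusted p under 0.05, 0 by DESeq2), where 15.6% of all genes tested fell and 21.7% rose. The median log2 fold change over the 12 was -0.36. Those that fell were *Cltrn* (collectrin, which brings amino acid transporters to the proximal tubule brush border) at -1.71, *Klk1* (tissue kallikrein, a kinin-releasing protease) at -1.35, *Anpep* (aminopeptidase N) at -0.93 and *Agtrap* (a protein that binds the type 1 receptor) at -0.54. In LepK against IgGK, edgeR called 2 of the 12 higher and 0 lower (1 lower at an unadjusted p under 0.05, 0 by DESeq2), where 4.38% of all genes rose and 5.99% fell, with a median of 0.014. These were *Klk1* by 1.10 (adjusted p = 6.42e-05 from edgeR) and *Cltrn* by 0.89 (adjusted p = 0.000394 from edgeR). *Cltrn* and *Anpep* fell in LepK against WTK as well, to -0.81 and -0.58 on the log2 scale, and the median over the 12 was -0.24. In lung, where *Cma1* and *Mcpt4* passed the filter and *Cltrn* and *Klk1* did not, edgeR called 0 of 12 in either direction (3 at an unadjusted p under 0.05), DESeq2 called 1, and the median was 0.14. With 1.78% of all genes called higher and 2.36% lower in lung, a count of 0 among 12 is near the background. The list names known pathway members and was chosen with results of these data known, so its counts are a description.

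**Figure D5:**
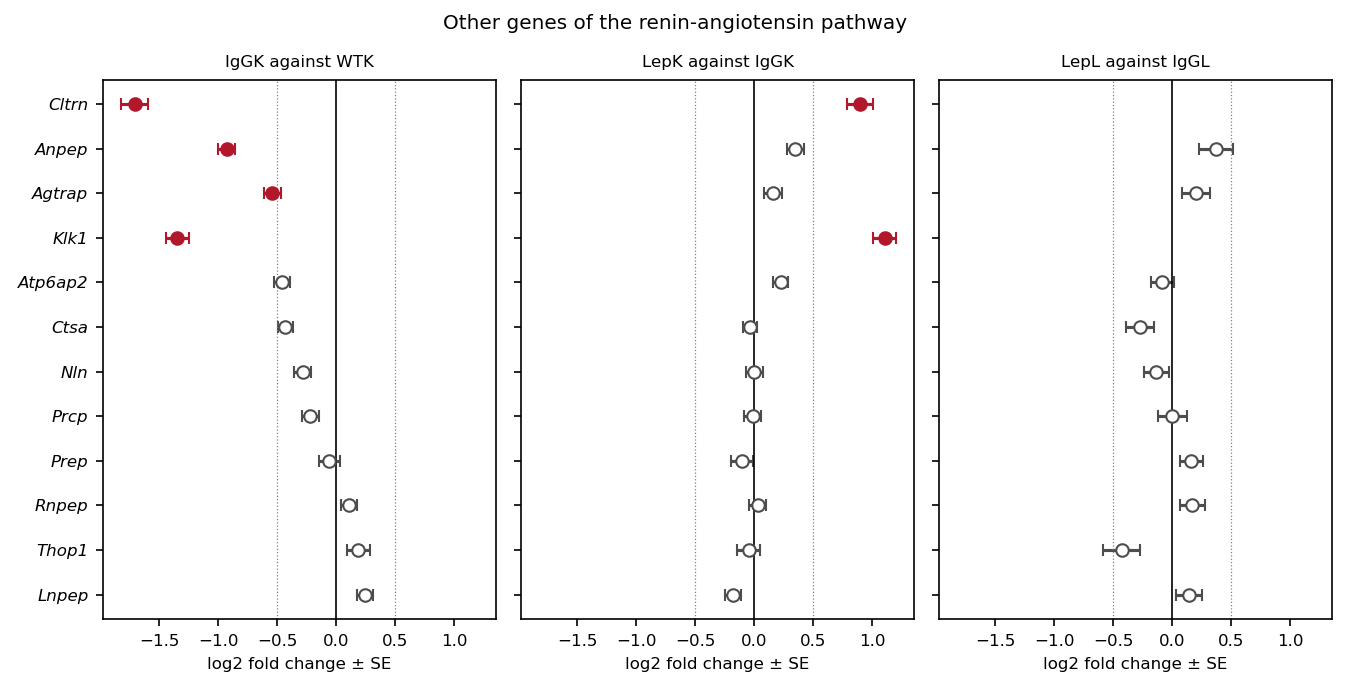
Fitted log2 fold changes ± SE from edgeR (horizontal axes) of 12 further pathway genes in 3 comparisons. Filled points were called, dotted lines mark ±0.5, and a gene that was not tested has no point. In IgGK against WTK the 4 called genes lie between -1.71 and -0.54, and in LepK against IgGK *Klk1* and *Cltrn* lie at 1.10 and 0.89.

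A list of 11 genes of the aldosterone arm, through which angiotensin II acts on sodium handling, was read in the same way. In kidney 10 passed the filter. *Scnn1a*, a subunit of the epithelial sodium channel, fell in IgGK (log2 -0.61, adjusted p = 7.12e-05 from edgeR) and rose in LepK over IgGK (0.65, adjusted p = 0.000535). *Slc12a3*, the thiazide-sensitive sodium chloride cotransporter, fell in IgGK (-1.03, adjusted p = 1.86e-06 from edgeR) and rose in LepK over IgGK (0.64, adjusted p = 0.000912). In IgGK against WTK, 2 of the 10 fell and 1 rose with a median of -0.12, beside 15.6% of all genes lower and 21.7% higher, so these counts are near or under the background. In LepK against IgGK 2 rose and 1 fell with a median of 0.29, beside 4.38% higher and 5.99% lower. The gene that rose and then fell is *Cyp11b1*, whose counts lie in the libraries with adrenal transcripts, and *Cyp11b2*, the aldosterone synthase, had 46 and 167 counts in IgGK replicates 1 and 2 and 0 in the other kidneys. In lung 9 passed the filter: *Nr3c2*, the mineralocorticoid receptor, rose (1.23, adjusted p = 0.0398 from edgeR), *Sgk1*, a kinase it induces, fell (-1.44, adjusted p = 0.0433 from edgeR), and the median was 0.068, beside 1.78% of all genes higher and 2.36% lower.

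For each of the 7 members with at least 1 CPM on average in kidney, the genes with the most similar profile over the 9 kidney libraries were listed by the root-mean-square difference of centred log2 CPM, among 12121 or more genes. For *Ren1* they were *Sord* (difference 0.113), *Cltrn* (0.114) and *Cmbl* (0.118). *Sord*, sorbitol dehydrogenase, stood at 2176, 698 and 1234 CPM on average in WTK, IgGK and LepK. For *Ace* they were *Hykk* (0.0662), *Acat1* (0.0927) and *Gm45645* (0.0975), and for *Agtr1a* they were *Dab2* (0.0539), *Pdha1* (0.0558) and *Cpt1a* (0.0581). *Agt* lay nearest to *Them6*, *Atp1b2* and *Pigp* (0.0920 to 0.0984), *Enpep* to *Aasdhppt*, *Eef1e1* and *Cemip2* (0.0445 to 0.0608), *Mme* to *Ppcdc*, *Rab20* and *Pax8* (0.0505 to 0.0609) and *Mas1* to *Syn3*, *Slc10a5* and *Bnc2* (0.138 to 0.164). The distances are not scaled to each member's own variation and cannot be compared between members. The SD of log2 CPM over the 9 libraries was 0.754 for *Ace*, 0.727 for *Ren1*, 0.708 for *Mas1* and 0.430 for *Agtr1a*. It was 0.310 for *Agt*, 0.229 for *Enpep* and 0.134 for *Mme*. No test was made of these distances.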

How the data were processed

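RNA of 9 kidneys and 6 lungs was sequenced after poly(A) enrichment, in libraries that do not keep the strand. The authors deposited a table from their sequencing provider with whole-number read counts per gene and FPKM values, and the submitters' notes name GRCm39 (mm39) and DESeq2, while the aligner and counting tool are not given in the sources used here. The FPKM values deposited by the authors are per kilobase of gene length and carry a library scaling beyond the total count: their implied totals were 1.02 to 1.46 times the count totals. The table's own fold changes and p-values hold the authors' comparisons and were not used.

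Libraries were grouped by title and treatment labels. A description line that names a column disagrees with them and was not used. Counts were filtered with filterByExpr (minimum count 10, minimum total 15), scaled by TMM and fitted with glmQLFit and glmQLFTest of edgeR 4.0.16 in R 4.3.3. The 9 kidney and the 6 lung libraries were fitted apart, and 12 libraries together for the difference between organs. Thresholds were the study's (absolute log2 fold change over 0.5, adjusted p under 0.05), with adjusted p alone for the difference between organs. The standard error is the log2 fold change over the square root of F. P-values measure the spread between libraries, each taken as 1 mouse, which no label states. Counts of replicates differed by more than sampling noise (chi-square 7.15 to 98.6 per gene). Totals of 25913969 to 38924788 counts limit what can be seen of *Agtr1b*, *Agtr2* and, in lung, *Ren1*.

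Alternatives were RLE and library-size scaling, DESeq2 1.42.0, no filter, a replicate block, only the 2 groups compared, no fold threshold, each library left out, and, chosen after the data were seen, IgGK replicate 3 as the single IgGK library. On simulated counts the fits recovered 84% (IgGK against WTK, over 19069 genes), 85% (LepK against IgGK, 19098 genes) and 80% (LepL against IgGL, 19305 genes) of the genes changed by 1 on the log2 scale. For the difference between organs they recovered 32% (20939 genes), so a difference of that size is often missed. The simulation gave every gene the same fixed spread and changed only genes above a low mean count. These shares therefore check the fits and do not give the share recovered among the real genes, whose spread differs, nor among scarce genes. The members and the pathway and marker lists were chosen with earlier results of these data known, and 2 genes of the pathway lists, and a ratio that needs 1 of them, are not reported here. All 9 members are named, as are called genes of the 2 pathway lists and the 3 genes nearest in kidney profile to each member. Promoter sequences are RefSeq's, of GRCm38.p6.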

Additional observations from a re-analysis of the deposited data

Results flagged for a closer look

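The antibody effect on *Ace* differed between the injured organs. *Ace* was higher in LepK than in IgGK by 0.64 on the log2 scale and lower in LepL than in IgGL by a log2 fold change of -0.70, and edgeR's interaction term gave 1.37 (adjusted p = 0.0216), the kidney effect minus the lung effect. All 3 LepK kidneys lay above all 3 IgGK kidneys, and all 3 LepL lungs lay below all 3 IgGL lungs. Organ, injury agent and day of collection cannot be told apart here. The result is not stable to single libraries: it lost its call without LepK replicate 1, IgGL replicate 2 or LepL replicate 3. With IgGK replicate 3 as the single IgGK library the difference was 1.13 (adjusted p = 0.189 from edgeR), and the other groups alone supply the spread of that fit, so the lost call says little about the 2 libraries left out.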

How the results depend on the processing

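The 4 members called in IgGK against WTK (*Ren1*, *Ace*, *Agtr1a*, *Mas1*) were called in that comparison under every alternative tried, and so was the rise of *Ren1* in LepK over IgGK. *Agt* joined them in IgGK against WTK under library-size scaling (0.94, log2), without the filter, in the fit of 2 groups and without 4 of the 9 libraries in turn. The counts of called members in the other comparisons changed. In LepK against IgGK the count went from 2 to 1 under library-size scaling, DESeq2, the fit of 2 groups and IgGK replicate 3 alone (a fit whose spread comes from the other groups), *Ace* being lost each time, to 4 without the filter on low counts (*Agtr1b* and *Agtr2* added) and to 4 without a fold threshold, and it ranged from 1 to 2 with single libraries left out. The added *Agtr1b* and *Agtr2* were lower in LepK than in IgGK, with 0 counts in every LepK kidney. In IgGK replicates 1, 2 and 3 *Agtr1b* had 6, 21 and 0 counts and *Agtr2* had 0, 43 and 2 counts. In LepK against WTK the count of called members went from 5 to 3 under library-size scaling. In LepL against IgGL it went from 3 to 0 with a replicate block and ranged from 0 to 3 with single libraries left out. For the difference between organs it went from 1 to 3 under library-size scaling, 4 under DESeq2, 7 without the filter and 0 with IgGK replicate 3 alone, and ranged from 0 to 4 with single libraries left out. Signs turned for differences that were not called. Library-size scaling, which shifts the all-gene median log2 fold change to 0.48 for IgGK against WTK, to -0.19 and 0.29 for LepK set against IgGK and WTK, and to -0.25 for the difference between organs, gave 0.028 for *Enpep* and 0.41 for *Mme* in IgGK against WTK, and -0.046 for *Agt* and -0.13 for *Enpep* in LepK against IgGK. *Mas1* gave -0.17 in LepK against IgGK with IgGK replicate 3 alone. With single libraries left out, *Mme* ranged from -0.077 to 0.0070 in IgGK against WTK, *Enpep* from -0.053 to 0.16 in LepK against IgGK and *Mas1* from -0.98 to 0.11 for the difference between organs. The cause of these changes was not tested.

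Correlations between same-numbered replicates of different groups ran from -0.03 to 0.18 over 9 kidney pairs and from -0.06 to 0.07 over 3 lung pairs. Of the libraries, 5 of 9 kidney and 2 of 6 lung libraries correlated best with their own number. The highest kidney values were those of IgGK with LepK, 0.182 for replicate 1 and 0.165 for replicate 2, while replicate 3 gave -0.035. Crossing replicates 1 and 2 of these groups gave -0.190 and -0.186. The numbers were not taken as pairing in the main fits, and whether IgGK and LepK kidneys were paired was not settled by these values. With the replicate block edgeR's adjusted p in lung was 0.0794 for *Ace*, 0.0823 for *Enpep* and 0.0806 for *Mme*, and the block changed no other call of a member.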
